A study of Mus musculus with 4 samples.

Results

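The genes described here are 9 genes of red blood cells measured in RNA of the embryonic mouse telencephalon, the front part of the brain that forms the cerebral hemispheres. They are the alpha-type globins Hba-x, Hba-a1 and Hba-a2, the beta-type globins Hbb-bh1 and Hbb-y, the haem enzyme gene Alas2, the membrane protein gene Slc4a1, and the transcription factor genes Gata1 and Klf1. They were chosen by name, as all spots whose gene symbol in the platform annotation is one of these 9, out of 19087 gene symbols. The 9 genes had 10 spots, 2 of them for Hbb-bh1 and 1 for each other gene. Of these, 9 spots for 8 genes had a value on all 4 arrays. Gata1 had a value on 1 array.

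The series compared 152F7 transgenic embryos with wild-type embryos at E12.5, a stage of mid-gestation, both on the FVB background, per the labels. Cells of 152F7 mice hold human DNA cloned in a yeast artificial chromosome, a segment of the Down syndrome region with the kinase gene DYRK1A in it. The arrays are technical replicates of pooled samples, per the labels and the series text, which leaves 1 RNA pool for each genotype, with the number and sex of the embryos not given in the sources used here. Both pools were hybridised together on 4 two-colour Agilent arrays, with wild type in Cy5 on 2 arrays and 152F7 in Cy5 on 2 arrays. With 1 pool per genotype no test across genotypes was possible so p-values are absent. Labelling and hybridisation enter the SD over the 4 arrays, and the spread between embryos does not.

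Each value is a deposited log ratio of the 2 pools, read as log2. The labels do not state which pool is the numerator or whether the dye-swapped arrays had been turned to one direction. Over every spot measured on the 4 arrays, arrays of opposite dye orientation correlated at -0.661 to -0.596 (Pearson, across spots). These correlations alone do not settle the direction. Across the spots with a gene symbol the same correlations were 0.0367 to 0.116. All 4 arrays were taken to have the same numerator pool, since 3 of the 4 measured genes of the sex chromosomes kept their sign on every array. Xist, a noncoding RNA made from the inactive X chromosome of females, was at -3.38 ± 0.11 (SD, n = 4 arrays). Its 3 spots with a value on every array differed widely in size, with means of -1.06, -3.61 and -5.46, and a further spot had a single value of 1.075. The Y-linked genes Eif2s3y and Kdm5d were at 2.10 ± 0.33 and 0.80 ± 0.08. If 1 orientation were turned, these genes and Xist would have opposite signs in the 2 orientations, although both pools lie on every array. The Y-linked gene Zfy1, at 0.06 ± 0.08, was above 0 on 3 arrays and below 0 on 1. The pools are therefore called numerator pool and denominator pool, and higher means higher in the numerator pool. The turned value, which would be 152F7 over wild type if the deposited values were Cy5 over Cy3, is given beside each measured gene of the 8, and turned counts are given for the lists of other genes. A ratio carries no level, so the genes were not ranked by abundance. An array value was present for 53.7% to 65.3% of the 44290 spots, and intensities were not used here, so the signal over background of each spot is unknown.

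Red cells of the early embryo come first from the yolk sac, circulate with their nuclei, and carry embryonic haemoglobins that include zeta-type and epsilon-type chains. Definitive red cells made later in the fetal liver carry adult alpha and beta chains. Gata1 and Klf1 are the transcription factors that drive globin, haem and membrane genes in both lineages, by binding GATA and CACCC elements of their promoters and enhancers. The developing brain makes no red cells, and its blood vessels contain circulating ones. In a bulk sample, fewer cells of a type and less RNA per cell cannot be told apart.

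The alpha-type globin genes lie next to one another on chromosome 11, in the order Hba-x, Hba-a1, Hba-a2 with the theta globin genes among them. The beta-type genes Hbb-bh1 and Hbb-y are neighbours on chromosome 7. Alas2 and Gata1 are on the X chromosome, and the pools differed in sex chromosome transcripts as given above. Of the 9 genes, 7 matched a promoter in the RefSeq table of the build GRCm38.p6. The upstream 250 bases of 5 of them are shown, since these are the alpha-type globins and Alas2, whose ratios lay above 0 on every array, and Hbb-y, whose ratio changed sign with the dye. Capitals mark matches, on either strand, to CACCC and to the GATA motif, searched as AGATAA and likewise as AGATAG, then with another first base as TGATAA and likewise as TGATAG, and 0 matches of one motif overlapped the other.
Hba-x, GRCm38.p6 chr11:32276350-32276599, plus strand: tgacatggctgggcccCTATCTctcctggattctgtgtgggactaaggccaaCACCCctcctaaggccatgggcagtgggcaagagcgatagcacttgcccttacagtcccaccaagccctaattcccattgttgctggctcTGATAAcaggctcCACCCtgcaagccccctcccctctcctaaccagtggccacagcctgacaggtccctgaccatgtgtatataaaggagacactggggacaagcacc
Hba-a1, GRCm38.p6 chr11:32283422-32283671, plus strand: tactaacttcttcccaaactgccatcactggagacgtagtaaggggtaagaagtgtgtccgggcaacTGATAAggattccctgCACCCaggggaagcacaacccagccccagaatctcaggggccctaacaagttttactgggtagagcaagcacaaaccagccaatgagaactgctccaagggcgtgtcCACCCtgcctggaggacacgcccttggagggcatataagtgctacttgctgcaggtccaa
Hba-a2, GRCm38.p6 chr11:32296242-32296491, plus strand: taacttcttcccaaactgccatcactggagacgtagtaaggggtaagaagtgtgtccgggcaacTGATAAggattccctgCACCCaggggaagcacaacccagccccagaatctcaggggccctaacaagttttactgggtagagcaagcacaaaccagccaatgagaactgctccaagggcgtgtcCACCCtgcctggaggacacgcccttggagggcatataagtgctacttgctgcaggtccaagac
Hbb-y, GRCm38.p6 chr7:103853208-103853457, minus strand: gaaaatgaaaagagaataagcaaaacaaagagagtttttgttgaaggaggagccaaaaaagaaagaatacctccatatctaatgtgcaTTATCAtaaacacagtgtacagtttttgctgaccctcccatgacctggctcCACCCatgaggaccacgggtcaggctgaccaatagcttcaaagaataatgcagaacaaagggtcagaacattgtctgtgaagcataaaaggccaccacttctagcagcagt
Alas2, GRCm38.p6 chrX:150547167-150547416, plus strand: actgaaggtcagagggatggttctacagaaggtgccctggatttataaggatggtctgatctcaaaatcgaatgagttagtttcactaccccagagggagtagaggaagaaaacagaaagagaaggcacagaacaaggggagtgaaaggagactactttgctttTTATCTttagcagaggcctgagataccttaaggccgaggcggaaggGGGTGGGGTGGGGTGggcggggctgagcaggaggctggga
Over the 300 bases that the table gives, from 250 before to 50 after the start, the Hba-a1 and Hba-a2 sequences shared an identical run of 297 bases, offset by 3. The spots of these genes were therefore read with care, and which of the 2 transcripts each spot reports was not tested. Among the 7 genes with a promoter, 6 held a GATA match and 7 held a CACCC match in the upstream 250 bases. Over all 32851 promoters of the table, 26.5% held a GATA match, 52.0% a CACCC match and 11.8% both. Gata1 was the gene without a GATA match in this window. These matches describe the reference sequence of another strain and say nothing of binding.

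Most of the globin and red cell genes were higher in the numerator pool, by small amounts. To be called higher or lower, a gene needed a mean ratio of at least 1.1-fold, which is 0.14 on the log2 scale, and one sign across all 4 arrays. By this rule 5 of the 8 measured genes were higher, against 3.42% of all 11791 measured genes, and 0 were lower, against 1.45%. The 5 were Hba-x, Hba-a1, Hba-a2, Alas2 and Slc4a1. No gene of the 8 reached 1.5-fold, which 0.0763% of all genes did in the higher and 0.00848% in the lower direction. A ratio above 0 on all 4 arrays was found for 6 of the 8 genes, Hbb-bh1 being the sixth, and for 12.8% of all genes. A ratio below 0 on all 4 arrays was found for 0 of the 8 genes and for 9.86% of all genes. The median of the 8 means was 0.17, beside 0.002 for all genes. The medians of the 8 genes on the single arrays lay between 0.122 and 0.145. These counts depend on the reading of the direction. With the 2 arrays with wild type in Cy5 turned, 0 of the 8 were higher and 1 was lower, against 4.49% and 2.39% of all genes, and the median was -0.0086.

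**Figure D1:**
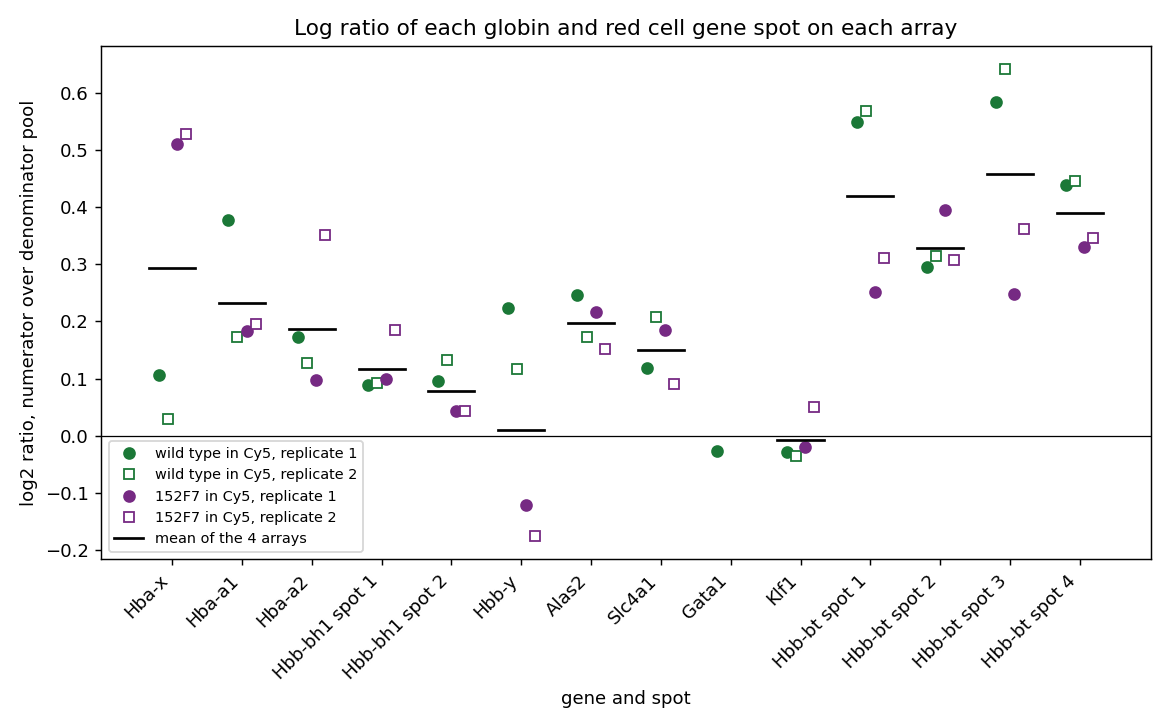
Log2 ratio (numerator over denominator pool) of each spot of the globin and red cell genes and of Hbb-bt on each of the 4 arrays. Colours give the dye orientation, symbols the replicate number, and bars the mean of the 4 arrays. The points of Alas2 lie between 0.151 and 0.246, those of Hba-x fall into 2 pairs, and those of Hbb-y lie on both sides of 0.

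Among the alpha-type globins, the embryonic gene Hba-x, which encodes the zeta chain of the first haemoglobins, had the highest mean. Its ratios were 0.106 and 0.030 with wild type in Cy5 and 0.510 and 0.528 with 152F7 in Cy5. All 4 lay above 0, but the 2 orientations did not overlap. The mean was 0.29 ± 0.26, a ratio of 1.23-fold, with 1.05-fold in one orientation and 1.43-fold in the other. The size of the Hba-x difference therefore rests on the arrays with 152F7 in Cy5, and its turned value would be 0.23. Of all measured genes, 38 had a higher mean.

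Hba-a1 encodes an adult alpha chain, the partner of the beta chains in adult haemoglobin. Which red cells its ratio comes from was not tested. Its ratios were 0.378 and 0.172 with wild type in Cy5 and 0.183 and 0.196 with 152F7 in Cy5. The first array stood above the other 3, which were close together, and the orientations overlapped. The mean was 0.23 ± 0.10, or 1.17-fold, and the turned value was -0.04. With the first array left out, the mean was 0.184.

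Hba-a2 encodes the other adult alpha chain. Its ratios were 0.172 and 0.127 with wild type in Cy5 and 0.098 and 0.351 with 152F7 in Cy5. Here replicate 2 of 152F7 in Cy5 stood above the other arrays. The mean was 0.19 ± 0.11, or 1.14-fold, and the turned value was 0.04. Without that array the mean was 0.132, and Hba-a2 no longer reached the 1.1-fold rule. The highest array differed between the spots of Hba-a1 and Hba-a2.

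The 2 embryonic beta-type globins did not reach the rule. Hbb-bh1, an embryonic beta-type chain of the mouse, had 2 spots. The first gave 0.089 and 0.093 with wild type in Cy5 and 0.10 and 0.185 with 152F7 in Cy5. The second gave 0.095 and 0.133, and then 0.043 and 0.044. The spot means were 0.12 ± 0.05 and 0.08 ± 0.04, so both spots lay above 0 on every array. The gene mean was 0.10 ± 0.02, or 1.07-fold, with a turned value of -0.005, and 8.49% of all genes had a higher mean.

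Hbb-y encodes the epsilon-type chain of primitive red cells. Its ratios were 0.223 and 0.116 with wild type in Cy5 and -0.122 and -0.175 with 152F7 in Cy5. The sign followed the dye orientation, as it did for 30.8% of all genes. Its mean of 0.01 ± 0.19 was smaller than its SD, and its turned value was -0.16, the 1 gene that passed the rule in that reading. Among the 9 genes, the globins with spots above 0 on every array were thus 3 alpha-type genes and 1 beta-type gene. The adult beta-type gene Hbb-bt, treated below and not among the 9, also lay above 0 on every array.

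Alas2 had the ratios that varied least with dye among the 5 genes past the rule, together with Slc4a1. It encodes the red cell form of 5-aminolevulinate synthase, which starts haem synthesis. Its ratios were 0.246 and 0.172 with wild type in Cy5 and 0.217 and 0.151 with 152F7 in Cy5. The orientations overlapped, with means of 0.21 and 0.18. The mean of Alas2 was 0.20 ± 0.04, or 1.15-fold, the turned value was -0.01, and 1.33% of all genes had a higher mean. Alas2 is X-linked, and the part of the sex difference between the pools in its ratio was not tested.

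Slc4a1 encodes band 3, the anion exchanger that anchors the red cell membrane to its skeleton. Its ratios were 0.118 and 0.207 with wild type in Cy5 and 0.185 and 0.090 with 152F7 in Cy5. The orientations overlapped. The mean was 0.15 ± 0.06, or 1.11-fold, and so just past the rule. Leaving out replicate 2 of wild type in Cy5 gave 0.131, below the rule, and the turned value was -0.01.

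Neither transcription factor had a ratio past the rule. Klf1, which activates the adult beta globin gene and other red cell genes, had ratios of -0.028 and -0.035 with wild type in Cy5 and -0.020 and 0.051 with 152F7 in Cy5. Its mean of -0.01 ± 0.04 was smaller than its SD, 3 of its 4 ratios lay below 0, and the turned value was 0.02. Gata1, the factor that red cells and platelet precursors depend on, had 1 value, -0.027, on replicate 1 of wild type in Cy5. No mean was taken for it.

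**Figure D2:**
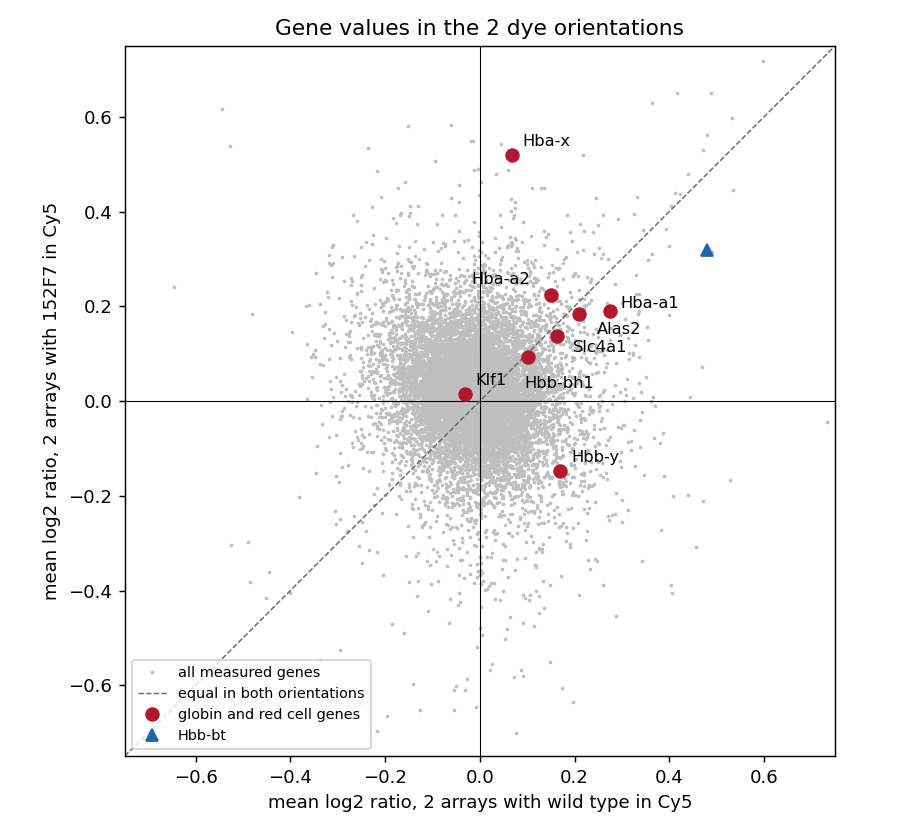
Mean log2 ratio of each measured gene with wild type in Cy5 (horizontal, 2 arrays) and with 152F7 in Cy5 (vertical, 2 arrays), with the globin and red cell genes in red, Hbb-bt in blue and 10 genes outside the axes not shown. Alas2, Slc4a1 and Hbb-bh1 lie near the line of equal values, while Hba-x lies far above it and Hbb-y below 0 on the vertical axis.

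The order of the means was Hba-x, Hba-a1, Alas2, Hba-a2, Slc4a1, Hbb-bh1, Hbb-y and Klf1. Neighbours in the first 5 places differed by less than their SDs over the arrays, so their order is not resolved. The SD over the arrays was highest for Hba-x at 0.26 and Hbb-y at 0.19, and lowest for Hbb-bh1, the mean of 2 spots, at 0.02. For Hba-x and Hbb-y the spread lay between the orientations, since the SD within an orientation was 0.04 and 0.06. For Hba-a1 and Hba-a2 it lay within an orientation, at 0.10 and 0.13.

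**Figure D3:**
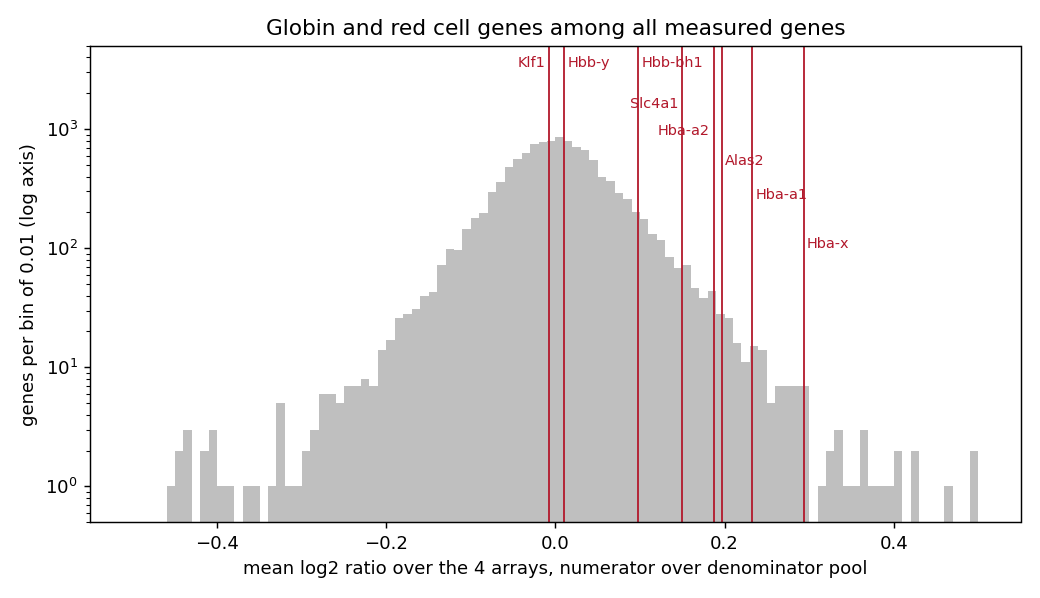
Number of genes in each 0.01 bin of the mean log2 ratio over the 4 arrays, on a log axis, with the 8 measured globin and red cell genes as red lines and 15 genes beyond the axis not shown. Hba-x at 0.29, Hba-a1, Alas2, Hba-a2 and Slc4a1 lie on the upper side of the distribution, and Hbb-y and Klf1 lie at its centre.

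The adult beta globin gene Hbb-bt had a higher 4-array mean than the 8 measured genes, but with 152F7 in Cy5 Hba-x lay above it. In the turned reading, of the 8 genes only Hbb-y lay below Hbb-bt. Hbb-bt has 4 spots, with means of 0.42, 0.33, 0.46 and 0.39, and each spot was above 0 on all 4 arrays. Its gene mean was 0.40 ± 0.09, or 1.32-fold, with 0.48 for wild type in Cy5 and 0.32 for 152F7 in Cy5, where Hba-x was at 0.52, and the turned value was -0.08. Adult beta globin genes share sequence, and whether these spots also report the neighbouring gene Hbb-bs was not tested. The related genes Cygb and Ngb, globins of fibroblasts and of neurons, had means of 0.11 ± 0.17 and 0.05 ± 0.16 with ratios on both sides of 0.

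Other genes of red cell formation were called about as often as genes in general. The 6 lists of haem synthesis, iron handling, red cell membrane, erythroid regulators, erythropoietin and stem cell factor signalling, and red cell enzymes held 92 measured genes. Of these 3 were higher (3.26%) and 1 was lower (1.09%), shares near those of all genes, and their median was 0.02. Turned, 3 other genes were higher and 3 lower, against 4.49% and 2.39% of all genes. The haem synthesis list, of enzyme and transporter genes, gave 0 of 11 genes past the rule and a median of -0.02. Alas1, the form of the first enzyme found in all tissues, was at 0.10 ± 0.04 and Cpox, which acts late in the pathway, at 0.10 ± 0.11. The 4-array mean of Alas2 was above those of these 11 genes. That order did not hold with 152F7 in Cy5 alone, where Cpox was at 0.196 and Alas2 at 0.184, or in the turned reading, where Cpox was at 0.10, Fech, the last enzyme of the pathway, at 0.03 and Alas2 at -0.01.

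In iron handling 1 of 14 genes was higher (median 0.01), Fth1, which encodes the ferritin heavy chain, at 0.15 ± 0.15. Its ratios were 0.029 and 0.026 in one orientation and 0.248 and 0.305 in the other, so its size rested on the arrays with 152F7 in Cy5. Without either of those 2 arrays it fell under the rule, at 0.12 and 0.101, and its turned value was 0.12. The transferrin receptor gene Tfrc was not past the rule, at -0.02 ± 0.04. Among red cell membrane genes 1 of 15 was higher (median 0.04), Kel, which encodes a blood group peptidase, at 0.20 ± 0.05, with a turned value of 0.04. The glucose transporter gene Slc2a1, which brain vessels also use, had a higher mean, 0.29 ± 0.30, but was not called because one of its ratios was 0. Its ratios were 0.090 and 0.0 with wild type in Cy5 and 0.468 and 0.618 with 152F7 in Cy5, the same split by orientation as for Hba-x, and its turned value was 0.25. The ankyrin gene Ank1, whose product ties band 3 to the skeleton, was at 0.07 ± 0.05, above 0 on all arrays but under the rule.

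Among erythroid regulators 1 of 19 genes was higher and 1 lower (median 0.01). Cbfa2t3, a corepressor that binds the Gata1 and Tal1 complex, was at 0.18 ± 0.03. Gata2, which precedes Gata1 in blood progenitors and is also used by neurons, was at -0.15 ± 0.03. Gata2 fell short of the rule without replicate 1 of 152F7 in Cy5, at -0.133, and with the spot nearest to 0, at -0.107. The turned values of Cbfa2t3 and Gata2 were -0.02 and -0.01. Tal1, a factor of the same complex, was at 0.03 ± 0.11. Neither of the remaining red cell lists held a gene past the rule. In erythropoietin and stem cell factor signalling, with 0 of 12 genes, the receptor genes Kit and Epor were at 0.08 ± 0.06 and 0.02 ± 0.13. In red cell enzymes and maturation, with 0 of 22 genes, the catalase gene Cat was at 0.13 ± 0.07 and the carbonic anhydrase gene Car1 at -0.02 ± 0.08.

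**Figure D4:**
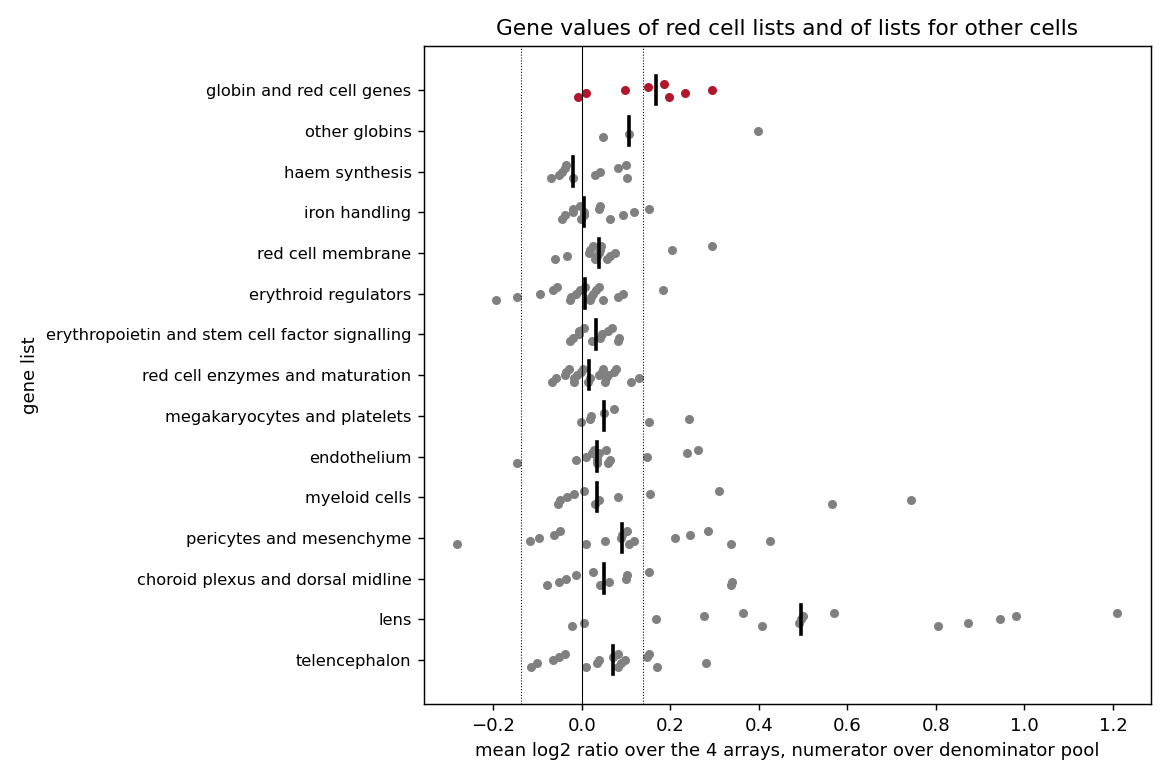
Mean log2 ratio of each measured gene in the globin and red cell genes (red), in the lists of other red cell genes and in lists of markers of other cells (grey). Black bars are list medians and dotted lines the 1.1-fold size. As deposited, the globin and red cell median of 0.17 lies above those of the other red cell lists, and the lens median of 0.50 lies above it.

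Lists of markers of other cell types also had genes past the rule in the numerator pool. These counts are to be read against 3.42% higher and 1.45% lower among all genes. In the turned reading the shares of all genes were 4.49% and 2.39%. The higher calls then fell to 0 in the lens, myeloid, endothelial and choroid plexus lists. The mesenchyme list had 1 higher gene, Lum, with a turned value of 0.16. The platelet list had 2, Pf4 at 0.19 and Itgb3 at 0.29. None of these genes was called as deposited, where their signs followed the dye, and none of the genes called higher as deposited in these lists kept its call. The lens list had 13 higher genes and 0 lower among 15 (median 0.50). It held the crystallins Cryba1 at 1.21 ± 0.01, Crygf at 0.98 ± 0.07 and Cryaa at 0.95 ± 0.12, with a turned list median of 0.002. The myeloid list had 3 higher genes and 0 lower among 12 (median 0.04). They were the neutrophil proteins S100a9 at 0.74 ± 0.08 and S100a8 at 0.31 ± 0.08 and the lysozyme gene Lyz2 at 0.57 ± 0.07. The 9 others were not called, 8 of the 12 means lay above 0, and the lowest was Cx3cr1 at -0.05 ± 0.11. Whether blood content differed between the pools was not tested.

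The endothelial list had 2 higher genes and 1 lower among 15 (median 0.04), so 12 were not called. The vessel genes Mfsd2a and Kdr were at 0.26 ± 0.09 and 0.24 ± 0.04, and Erg, a transcription factor of vessels, was at -0.15 ± 0.08. Erg was under the rule without replicate 1 of 152F7 in Cy5, at -0.115. Of 7 genes of megakaryocytes and platelets 2 were higher and 0 lower (median 0.05). Vwf, shared by platelets and vessels, was at 0.24 ± 0.07, and Ppbp at 0.15 ± 0.06. With the spot nearest to 0 Vwf was at 0.101, under the rule.

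Of 17 genes of pericytes and mesenchyme 5 were higher and 1 lower (median 0.09). The matrix genes Dcn, Col1a1 and Postn were at 0.43 ± 0.06, 0.34 ± 0.05 and 0.29 ± 0.02. The lower gene was the mesenchymal factor gene Twist1 at -0.28 ± 0.20, and 3 genes of the list lay below 0 on all 4 arrays against 9 above. Of 12 genes of choroid plexus and dorsal midline 3 were higher and 0 lower (median 0.05), Kcne2 at 0.34 ± 0.06, Ttr at 0.34 ± 0.12 and Clic6 at 0.15 ± 0.07. Clic6 was under the rule without either array with 152F7 in Cy5, at 0.129 and 0.136, and with the spot nearest to 0, at 0.0822.

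The labelled tissue was checked with 17 telencephalon genes that had values on the 4 arrays. Of these 1 was higher and 0 lower (median 0.07), the patterning factor Lhx2 at 0.28 ± 0.12. Turned, 2 other genes were higher and 0 lower. A value on every array shows that these transcripts gave a usable ratio, not how abundant they were. The part of tissue makeup in the globin ratios was not tested.

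The genes whose 4 array values were closest to the median profile of the 8 genes were Prmt2, Atf7ip, Id4, Pip5k1b and Cgnl1, with root mean square differences of 0.0106, 0.0109, 0.0117, 0.0119 and 0.0135 over the 4 arrays. Their means lay between 0.1235 and 0.1376. With 4 arrays of the same 2 pools, this likeness says that their ratios were of the same size and steadiness.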

How the data were processed

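RNA pools of 152F7 and wild-type telencephalon were co-hybridised on 4 two-colour arrays, and the deposited table gives 1 log ratio per spot and array. The deposited values were read as log2, since the largest has a size of 5.76 and a log10 ratio of 16-bit intensities reaches 4.82. What scanner software, background correction, normalization, log base or filter the authors used is not given in the sources consulted. Array medians lay between -0.007 and 0.007. A missing value can come from a filter on dim spots, so the measured genes are not all genes.

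Spots were named by spot number through the platform annotation. Of the 44290 spots, 32042 had 1 symbol, 47 several (not used) and 12201 none. Of the 32042, 31906 were found by Entrez identifier in the RefSeq genes of GRCm38.p6, and 0 symbols differed. For each of 11791 genes, the 4-array means of its fully measured spots (17767 in all) were averaged. Python 3.11.15, pandas 2.3.3 and numpy 2.4.6 were used, and the call rule was tested on simulated data.

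The genes, lists and rules were chosen with earlier results of these data known. All 9 genes are named. From each other list up to 3 genes past the 1.1-fold rule with the largest means are named, or up to 2 where none passed. Hbb-bt, Kel, Alas1 and others follow from this rule. Tfrc, Ank1, Slc2a1, Fech, Tal1, Epor, Car1, Cygb, Ngb, Twist1, Lum, Pf4, Itgb3 and Zfy1 were named after their values were seen. The alternatives were the turned direction, natural logs, each array left out, each orientation alone, the median or nearest-to-0 spot, spots with missing values, centring, and a filter on noisy spots.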

Additional observations from a re-analysis of the deposited data

Results flagged for a closer look

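For Hbb-y, the 2 arrays with wild type in Cy5 lay above 0 and the 2 arrays with 152F7 in Cy5 below 0, which is why it is listed. The mean with wild type in Cy5 minus the mean with 152F7 in Cy5 was 0.318 on the log2 scale. This difference was not tested, and 30.8% of all measured genes also changed sign with the orientation. Groups of 2 arrays are too small for the check on single far samples.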

How the results depend on the processing

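Both pools lie on every array, so each ratio already compares them within an array. With 1 RNA pool per genotype no test was run, paired or not. With the wild type in Cy5 arrays turned, the count of globin and red cell genes past 1.1-fold was 0 higher and 1 lower, and the median of the 8 genes was -0.00862. In that reading Hba-a1 was at -0.0428, Alas2 at -0.0125, Slc4a1 at -0.0125, Hbb-bt at -0.0805, Cbfa2t3 at -0.0225, Mfsd2a at -0.0728, Kdr at -0.0305, S100a9 at -0.0132, Col1a1 at -0.0259, Cryba1 at -0.00175, Crygf at -0.028 and Lhx2 at -0.0545. There the red cell pathway lists held 3 higher and 3 lower genes, and the marker lists of other cells 5 higher and 0 lower. Among all genes 4.49% were higher and 2.39% lower in that reading. As reported, the pathway lists held 4 higher and 1 lower genes. The marker lists held 29 higher, 13 of them in the lens list, and 2 lower. Among all genes 3.42% were higher and 1.45% lower as reported. Read as natural logs, the median was 0.243 and 9 of 95 pathway genes were higher, against 6.47% of all genes. With wild type in Cy5 alone, the median was 0.156, 7 pathway genes were higher and 5 marker genes lower, against 6.29% higher and 8.07% lower among all genes. With 152F7 in Cy5 alone, 1 of the 8 genes was lower, 15 pathway genes were higher and 8 lower, and 4 marker genes were lower, against 12.3% higher and 6.79% lower among all genes. With the spot nearest to 0, 0 pathway genes were lower. Without the noisiest 25% of spots, Hba-a1 and Hba-a2 were not measured. Of the 6 genes left 3 were higher, the median was 0.124 and 0 marker genes were lower. All genes there gave 3.87% higher and 1.17% lower. Leaving out each array in turn gave 4 to 5 higher genes of the 8 and medians of 0.151 to 0.17. It gave 0 to 2 lower pathway genes and 1 to 3 lower marker genes. Among all genes 3.28% to 4.39% were then higher and 1.79% to 2.66% lower. The causes were not tested, apart from the loss of genes under the noise filter. The number of arrays and the single pool per genotype limit the precision, and signal over background is unknown.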
